A study of Homo sapiens with 24 samples.

Results

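The genes described here are 9 chemokines of the CXCL and CCL families, CXCL1, CXCL2, CXCL3, CXCL5, CXCL8, CXCL10, CXCL11, CCL2 and CCL5. They were taken by name, with earlier results of these data known, from 18154 genes with a symbol in any of the 3 tables of the series. RNA was sequenced in 24 libraries, 8 groups of 3, from BT549, an established line of human breast tumour cells of the triple negative type. The knockdown experiment set cells given a SMARTpool of siRNAs to MYC over 72 h (siMYC) beside cells given siCtl. In the inhibitor experiment the cells received KJ-PYR-9 together with DEX (KJ-PYR-9+DEX), KJ-PYR-9 alone, DEX alone or vehicle (VEH), and in the MB-3 experiment 100 µM MB-3 for 3 h (MB3) or a further vehicle (VEH2). KJ-PYR-9 is a small molecule that hinders the pairing of the MYC protein with its partner MAX, and was given at 40 µM for 3 h in DMSO. MB-3 is an inhibitor of the histone acetyltransferase GCN5. The labels give neither the dose nor the time of DEX, nor the time of siCtl, and all groups share the wild type genotype of 1 cell line. The first library grouped as MB3 by its treatment field carries the name MED3 in its title.

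Chemokines are small secreted proteins that draw leukocytes along a gradient by binding G protein-coupled receptors on them. Tumour cells secrete many of them, and those released by breast cancer cells can recruit neutrophils, monocytes and T cells into the tumour. CXCL1, CXCL2, CXCL3, CXCL5 and CXCL8 carry the ELR motif and act on neutrophils through the receptor CXCR2, with CXCL8 also binding CXCR1. CXCL10 and CXCL11 are interferon-induced ligands of CXCR3 on T cells, CCL2 draws monocytes through CCR2, and CCL5 draws T cells and monocytes. Many of these genes are textbook targets of NF-kB, a transcription factor of inflammation, and their mRNAs are short-lived.

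The values are deposited read counts per gene, normalized by the authors separately in each table, and each comparison stays within 1 table. For the knockdown 15665 genes were listed with 8 of the 9 chemokines (no entry for CXCL11), for the inhibitor experiment 17796 genes with all 9, and for the MB-3 experiment 10048 genes with 5 of them (CXCL1, CXCL2, CXCL3, CXCL5 and CXCL8) and a lowest gene mean of 83.9. Knockdown libraries held 18.8 to 24.2 M recovered reads, inhibitor libraries 5.58 to 30.8 M, and libraries of the MB-3 experiment 8.31 to 20.0 M. In the inhibitor experiment features without a gene symbol held 1.62% to 26.0% of the reads. The libraries DEX 1 (26.0%) and KJ-PYR-9+DEX 3 (8.72%) were highest, so calls that changed without both are given beside the results. The labels call the 3 libraries of a group biological replicates without naming cultures, so p-values measure the spread between these libraries. In bulk RNA fewer cells with a transcript and less of it per cell cannot be told apart. Mesenchymal markers (VIM, FN1, SPARC) were listed 3 of 3 in each table, at a summed 24492 to 61066. Of the 3 receptors that define breast cancer subtypes, ESR1 was not listed, PGR was listed in the inhibitor experiment only, at 0 to 20.9 normalized counts, and ERBB2 was listed in all 3 experiments, at 559 to 2100. ERBB2 was called higher in siMYC cells than in siCtl cells (0.65, SE 0.15, limma adjusted p = 0.0324). Of 7 leukocyte markers, which check for chemokine-producing immune cells, 3 were listed in the knockdown and inhibitor tables (PTPRC, CD14, CD68) and 0 in the MB-3 table.

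Of the 9 genes, 7 lie on chromosome 4 (GRCh38). CXCL8, CXCL1, CXCL5, CXCL3 and CXCL2 stand in a stretch of 359 kb, chr4:73740569-74099195, and CXCL10 and CXCL11 in a stretch of 15.0 kb, chr4:76021118-76036070. CCL2 (chr17:34255285-34257203) and CCL5 (chr17:35871491-35880360) are on chromosome 17. CXCL1, CXCL2 and CXCL3 are close copies, with coding sequences 93.5% identical between CXCL1 and CXCL2, 90.7% between CXCL1 and CXCL3 and 94.4% between CXCL2 and CXCL3, and identical runs of up to 61, 55 and 97 bases, so reads may be split uncertainly among them. CXCL10 and CXCL11 lie within the span of ART3 on the opposite strand, CXCL11 also over the pseudogene AC112719.1 on its own strand, and CCL5 overlaps the antisense gene AC015849.1. Strandedness was not given in the sources used here, so reads of such pairs cannot be told apart.

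The promoters of 7 of the 9 genes are in the RefSeq table used (GRCh38.p14). They are shown because CXCL5 and its 4 neighbours in the cluster, from which it differed in the inhibitor experiment, share a 9-base stretch there. Each sequence ends at the base before the annotated start and is read on the gene's own strand, with 150 bases for each gene and 250 for CXCL10. They are CXCL1 at chr4:73869243-73869392 (plus strand), CXCL2 at chr4:74099196-74099345 (minus strand), CXCL3 at chr4:74038690-74038839 (minus strand), CXCL5 at chr4:73998678-73998827 (minus strand), CXCL8 at chr4:73740419-73740568 (plus strand), CXCL10 at chr4:76023498-76023747 (minus strand) and CXCL11 at chr4:76036071-76036220 (minus strand). Capitals mark matches on either strand to GGNNNTTCC, an NF-kB-like pattern, and in CXCL10 the first run of capitals marks a match to the interferon-stimulated response element (ISRE).
CXCL1: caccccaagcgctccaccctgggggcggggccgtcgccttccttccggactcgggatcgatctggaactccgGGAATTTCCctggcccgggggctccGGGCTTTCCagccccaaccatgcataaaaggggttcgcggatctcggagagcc
CXCL2: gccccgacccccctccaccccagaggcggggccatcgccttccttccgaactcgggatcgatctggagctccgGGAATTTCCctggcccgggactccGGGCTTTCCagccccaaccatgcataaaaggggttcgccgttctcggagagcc
CXCL3: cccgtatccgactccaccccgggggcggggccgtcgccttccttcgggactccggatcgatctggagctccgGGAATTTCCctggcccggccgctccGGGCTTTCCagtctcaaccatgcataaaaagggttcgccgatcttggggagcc
CXCL5: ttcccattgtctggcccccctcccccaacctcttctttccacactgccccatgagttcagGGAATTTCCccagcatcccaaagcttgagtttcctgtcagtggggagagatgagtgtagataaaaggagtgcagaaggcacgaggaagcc
CXCL8: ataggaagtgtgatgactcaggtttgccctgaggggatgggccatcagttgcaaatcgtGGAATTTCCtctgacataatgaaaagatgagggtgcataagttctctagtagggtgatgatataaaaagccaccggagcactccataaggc
CXCL10: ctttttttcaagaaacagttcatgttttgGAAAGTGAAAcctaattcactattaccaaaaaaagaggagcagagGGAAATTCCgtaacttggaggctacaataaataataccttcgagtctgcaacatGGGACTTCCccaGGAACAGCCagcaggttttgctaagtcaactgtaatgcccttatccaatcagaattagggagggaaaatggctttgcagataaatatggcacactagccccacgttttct
CXCL11: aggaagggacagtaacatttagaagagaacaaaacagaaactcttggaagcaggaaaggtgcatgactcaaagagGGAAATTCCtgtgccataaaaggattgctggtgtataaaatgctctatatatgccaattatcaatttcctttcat

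All 7 windows, which run from 250 bases before the start to 50 after it, held GGNNNTTCC, against 20.1% of 35116 RefSeq promoter windows of that length. The longest stretch common to the windows of CXCL1, CXCL2, CXCL3, CXCL5 and CXCL8 was GGAATTTCC, which stood at -78, -77, -78, -90 and -91 from the start, and which 0.461% of all windows held on either strand. CXCL1, CXCL2 and CXCL3 each held another match at -53. CXCL10 held matches at -176, -122 and -110 and CXCL11 at -75. The ISRE-like pattern was found in 1 of the 7, CXCL10 at -221, against 3.57% of all windows. TGANTCA, an AP-1-like pattern, was found in CXCL8 at -137 and CXCL11 at -87, against 7.71%. The E-box CACGTG, the site MYC is known to bind, was in 0 of the 7 windows and in 7.26% of all, and a pattern like the glucocorticoid response element in 0 and in 0.390%. These are matches of letters in a short window, and no binding was measured.

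**Figure D1:**
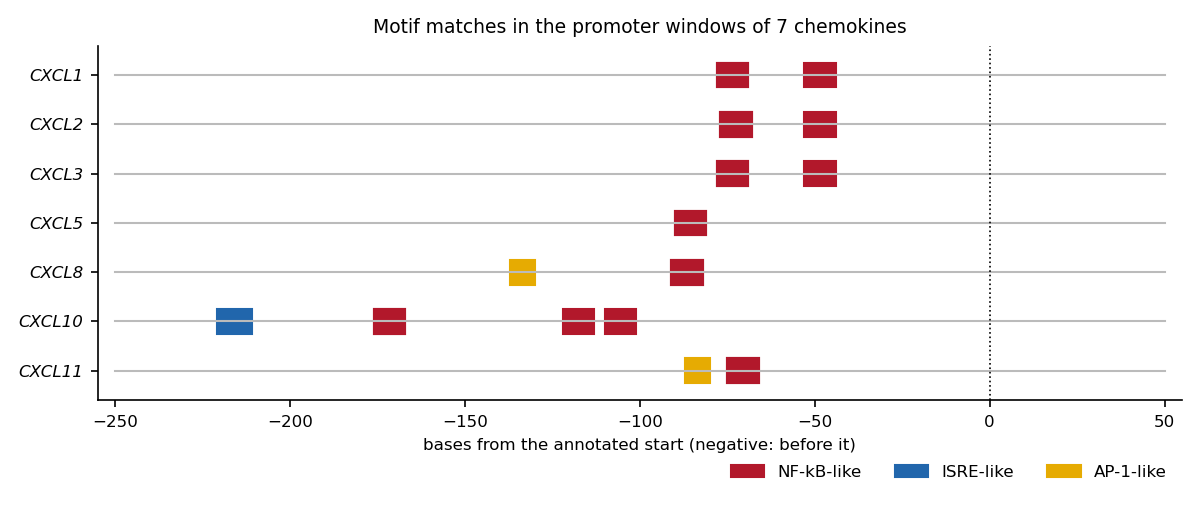
Matches to 3 motifs in the promoter windows of 7 chemokines, by distance in bases from the annotated start (dotted line); each grey line is 1 window and each box 1 match. An NF-kB-like match lies between -91 and -45 in each of CXCL1, CXCL2, CXCL3, CXCL5, CXCL8 and CXCL11, and CXCL10 holds 3 matches farther out and the ISRE-like match.

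Levels between genes were compared per kilobase of annotated exon, as normalized counts per kb. In DEX cells the order of mean levels per kb was CXCL1 (7188 ± 1292), CXCL2 (2939 ± 726), CXCL8 (724 ± 78.0), CXCL5 (454 ± 76.0), CCL5 (166 ± 31.5) and CXCL3 (128 ± 22.8), with CXCL2 and CXCL8 above CXCL5 in every library. The DEX libraries of CCL5 (130 to 190 per kb) and CXCL3 (102 to 143) overlapped. Below them were CCL2 (16.7 ± 3.74) and CXCL10 (15.8 ± 10.3), which also overlapped, and CXCL11 (1.25 ± 1.71). In VEH cells CXCL1 was highest, at 2158 ± 405 per kb (SD, n = 3), followed by CXCL5 at 237 (230 to 251 over the 3 libraries), CXCL2 at 128 ± 72.0, CCL5 at 108 ± 24.9, CXCL8 at 75.4 ± 45.5, CXCL3 at 27.1 ± 12.4 and CCL2 at 20.5 ± 7.74 per kb. The ranges of CXCL2, CCL5 and CXCL8 over the 3 libraries overlapped, as did those of CXCL8 with CXCL3 and of CXCL3 with CCL2. CXCL10 (7.41 ± 2.29 per kb) and CXCL11 (1.55 ± 0.792 per kb) were lowest.

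The knockdown asks which transcripts change when MYC mRNA is reduced. The siRNA target MYC read 1655, 1789 and 1710 normalized counts in siMYC cells, against 2313, 2269 and 2138 in siCtl cells. The groups did not overlap, and the log2 fold change was -0.38 (SE 0.11, limma adjusted p = 0.0587, over the threshold of 0.05). It passed in edgeR (adjusted p = 0.0175), in DESeq2 (0.00119) and after TMM rescaling (0.0331). The siMYC level was 0.767 of the siCtl level on that scale, so the label's direction held with most of the transcript still present. In these cells 4 of 8 chemokines tested rose, CXCL1, CXCL10, CCL2 and CCL5, and 0 fell (limma, Benjamini-Hochberg adjusted p under 0.05 over all 14788 genes tested). CXCL10 passed the filter of a mean of at least 10 only through the siMYC libraries, so its call is descriptive. Over all genes 11.4% rose in that comparison (1679 higher and 707 lower, or 1365 and 941 after TMM rescaling). With the filter at a mean of at least 50, CXCL10 was not tested. Then 4 of 7 chemokines were called, CXCL1, CXCL3, CCL2 and CCL5, beside 1764 of 12198 genes higher and 945 lower. The values that follow include CXCL10 and use the filter at 10. The median log2 fold change was 1.06 over the 8 chemokines, against 0.05 over all genes. In 7 of 8 every siMYC library lay above every siCtl library, which held for 26.6% of all genes, and CXCL5 was the exception.

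CXCL1, a neutrophil attractant and the most abundant chemokine per kb, read 8326, 9069 and 12413 normalized counts in siMYC cells, against 4707, 4610 and 4288 in siCtl cells. Each siMYC library held well over the highest siCtl value. The log2 fold change was 1.11 (SE 0.17, limma adjusted p = 0.0145). CXCL2 read 627, 561 and 1291 in siMYC cells, against 537, 541 and 358 in siCtl cells, and CXCL3 read 201, 174 and 333, against 128, 133 and 81.1. In both genes siMYC 3 was far above the other siMYC libraries and siCtl 3 below the other siCtl libraries. The differences of 0.71 (SE 0.34, adjusted p = 0.184) for CXCL2 and 1.02 (SE 0.30, adjusted p = 0.0619) for CXCL3 did not pass in limma, while DESeq2 gave CXCL3 an adjusted p of 0.0107.

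CXCL8, the classic attractant of neutrophils, varied most among the ELR group, with 1413, 886 and 3230 normalized counts in siMYC cells, against 692, 837 and 361 in siCtl cells. The lowest siMYC library was only slightly above the highest siCtl library, and the difference of 1.42 (SE 0.52, limma adjusted p = 0.101) did not pass. CXCL5, whose gene lies between CXCL1 and CXCL3 in the cluster, read 2003, 2298 and 2260 in siMYC cells, against 2127, 2185 and 2483 in siCtl cells. The groups overlapped throughout (-0.05, SE 0.13, adjusted p = 0.801).

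The largest fitted changes were those of CXCL10 and CCL5, while CXCL11, also a T cell attractant, had no entry in this experiment. CCL5 read 443, 251 and 935 normalized counts in siMYC cells, against 97.8, 91.6 and 60.2 in siCtl cells, and its log2 fold change was 2.52 (SE 0.47, limma adjusted p = 0.0211). Every siMYC library lay well above every siCtl library. CXCL10 read 53.5, 6.99 and 47.3 in siMYC cells, against 2.96, 2.18 and 0.836 in siCtl cells, and rose by a fitted 3.28 (SE 0.74, adjusted p = 0.0332). It passed the filter only through the siMYC libraries, with a mean of 35.9 against 1.99 in siCtl cells, so its p-value is descriptive. siMYC 2 stood far below the other siMYC libraries. These are 113 recovered reads in siMYC cells and 6 in siCtl cells, a ratio of 18.2 after scaling with a 95% exact interval of 8.11 to 50.7 that covers counting error only, and the fitted change depends on the pseudocount of 1. CCL2, the monocyte attractant, read 92.1, 65.5 and 90.8 in siMYC cells, against 43.5, 48.0 and 33.5 in siCtl cells, and rose by 0.97 (SE 0.20, adjusted p = 0.0262).

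These calls were close to the threshold. Leaving out siCtl 2 or siCtl 3 left 0 of the 8 genes called by limma, with 6 and 5 at an unadjusted p under 0.05. Leaving out siCtl 1 left 1 and leaving out siMYC 3 left 2. Calls over all genes fell as well, to 453 of 14810 higher and 77 lower without siCtl 2. They were 383 of 14816 and 49 without siCtl 3, 496 of 14786 and 74 without siCtl 1, and 444 of 14748 and 76 without siMYC 3. The share of all genes at an unadjusted p under 0.05 is not given here. With all libraries edgeR called 4 and DESeq2 called 5. Leukocyte markers summed to 75.1 to 94.6 normalized counts in siMYC libraries, against 39.5 to 62.1 in siCtl libraries, with CD68 called among the 3 listed. CD68 averaged 39.1 in siMYC and 12.2 in siCtl cells and CD14 21.2 and 13.0. PTPRC did not rise, at a mean of 23.0 in siMYC and 27.6 in siCtl cells with overlapping libraries. Epithelial markers summed to 676 to 946, against 321 to 345, with 4 of 5 listed. The part of the leukocyte and epithelial markers in the result was not tested. CD3E, ITGAM and LYZ were among the markers not listed.

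Other genes of the same pathways were read from lists, beside 11.4% of all genes higher (1679) and 707 lower in this comparison. Of 9 tested genes of the interferon pathway that leads to CXCL10, 7 rose and 0 fell, with a median log2 fold change of 2.49. Among them were the RNA sensors IFIH1 (3.42, SE 0.49, limma adjusted p = 0.0124) and DDX58 (2.67, SE 0.46, adjusted p = 0.0176), and the transcription factor IRF7 (2.82, SE 0.21, adjusted p = 0.00551). Of 14 NF-kB subunits and inhibitors 5 rose and 0 fell, with a median of 0.47. These included TNFAIP3, a deubiquitinase that restrains NF-kB (1.41, SE 0.21, adjusted p = 0.0128), and NFKBIA, the inhibitor IkB alpha (0.71, SE 0.16, adjusted p = 0.0311). IL6, a cytokine induced by NF-kB, rose by 1.65 (SE 0.43, adjusted p = 0.0460), one of 3 of 7 cytokines and adhesion targets that rose. Of 27 other chemokines 3 could be tested and 2 rose, CXCL16 (2.30, SE 0.48, adjusted p = 0.0275) and CXCL6 of the chromosome 4 cluster (1.43, SE 0.27, adjusted p = 0.0221). Of 5 receptors tested, the chemokine scavenger ACKR3 rose by 1.09 (SE 0.16, adjusted p = 0.0136) and ACKR4 fell by 0.88 (SE 0.21, adjusted p = 0.0360).

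**Figure D2:**
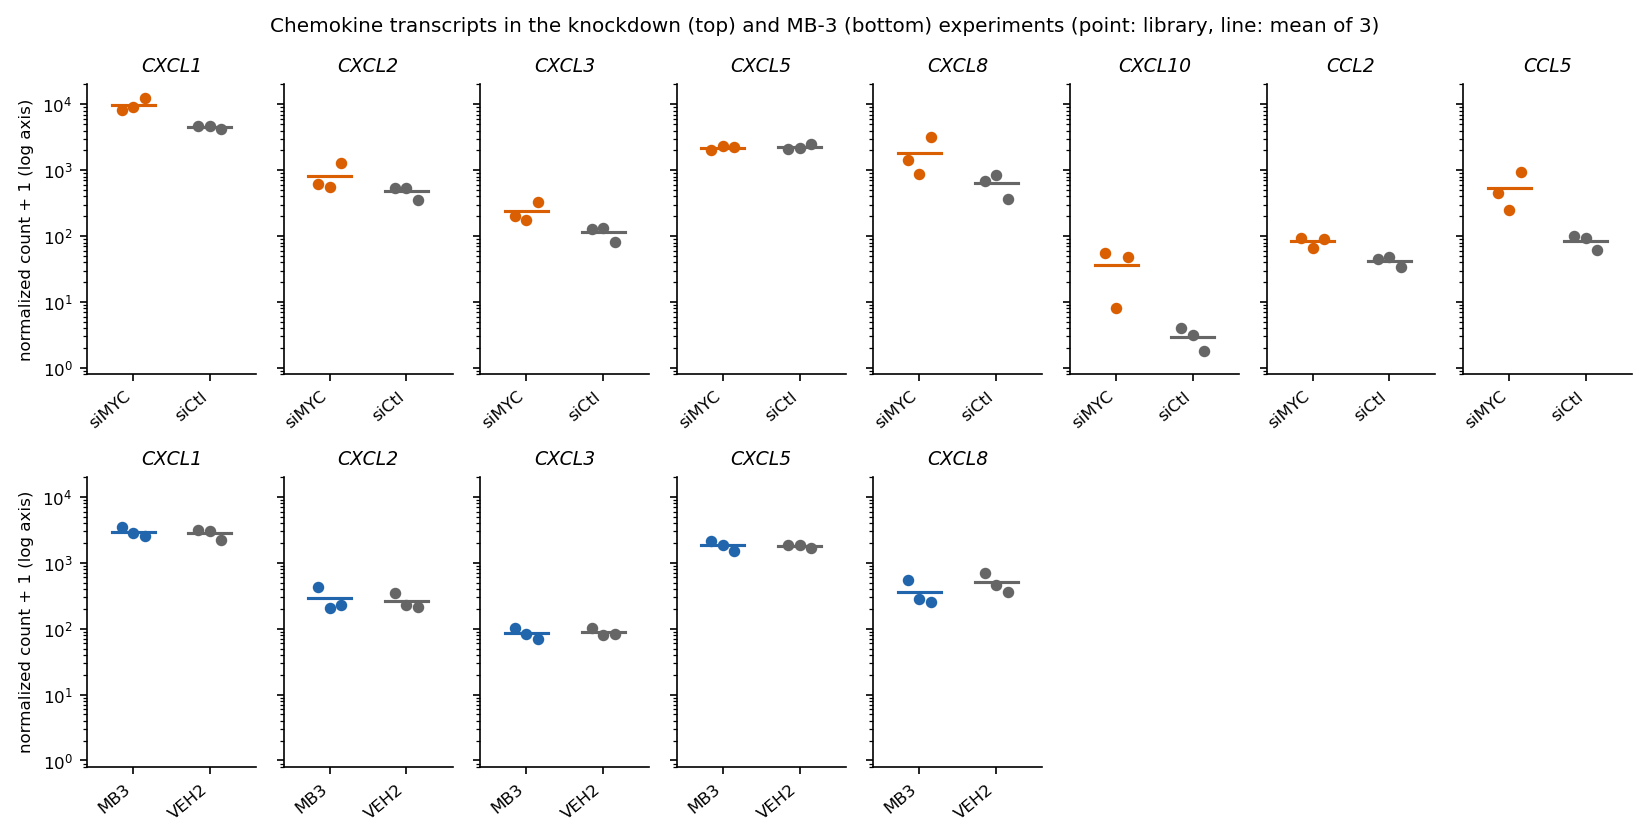
Normalized count plus 1 on a log axis for each chemokine in the knockdown (top, siMYC left of siCtl) and the MB-3 experiment (bottom, MB3 left of VEH2); points are libraries and lines are means of 3. siMYC libraries lie above siCtl libraries for 7 of 8 genes and overlap for CXCL5, and MB3 and VEH2 libraries overlap for all 5 genes listed.

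The inhibitor experiment asks how transcripts respond to KJ-PYR-9 with and without DEX. MYC read 4305, 3666 and 4510 normalized counts in KJ-PYR-9+DEX cells, 10272, 8283 and 11004 in KJ-PYR-9 cells, 19573, 16916 and 18783 in DEX cells, and 1551, 1378 and 2490 in VEH cells. All 3 treatments thus stood above VEH. KJ-PYR-9 acts on the MYC protein, so the transcript does not check its action. A list of 8 genes held the glucocorticoid receptor NR3C1 and 7 genes known to respond to it, and these 7 rose in DEX cells against VEH, with TSC22D3 at 4.49 (SE 0.40, limma adjusted p = 4.98e-05). Of the 9 chemokines, 7 passed the filter of a mean of at least 10 over the 12 libraries, and CXCL10 and CXCL11 did not. The comparisons with VEH share its 3 libraries, and those with KJ-PYR-9+DEX share that group's.

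CXCL2, CXCL3, CXCL8 and CXCL1 rose after KJ-PYR-9 alone and after DEX alone and did not stay raised when both were given. In the combination CXCL1, CXCL2 and CXCL3 were near VEH and CXCL8 was below it. CXCL5 had another pattern, with lower values in both groups that received KJ-PYR-9. Against VEH, KJ-PYR-9 raised 5 and lowered 1 of 7 chemokines (all genes: 25.4% higher and 17.5% lower), and DEX raised 4 and lowered 0 (all genes: 9.5% higher). The combination lowered 3 and raised 0 against VEH (all genes: 18.2% lower). It lowered 6 against DEX (all genes: 35.1% lower) and 4 against KJ-PYR-9 (all genes: 4.38% lower). The median log2 fold change of the 7 chemokines was 1.21 for KJ-PYR-9 against VEH and 1.74 for DEX against VEH. It was -0.28 for the combination against VEH, -2.40 against DEX and -1.05 against KJ-PYR-9. Over all genes the median of these 5 comparisons lay between -0.09 and 0.06.

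**Figure D3:**
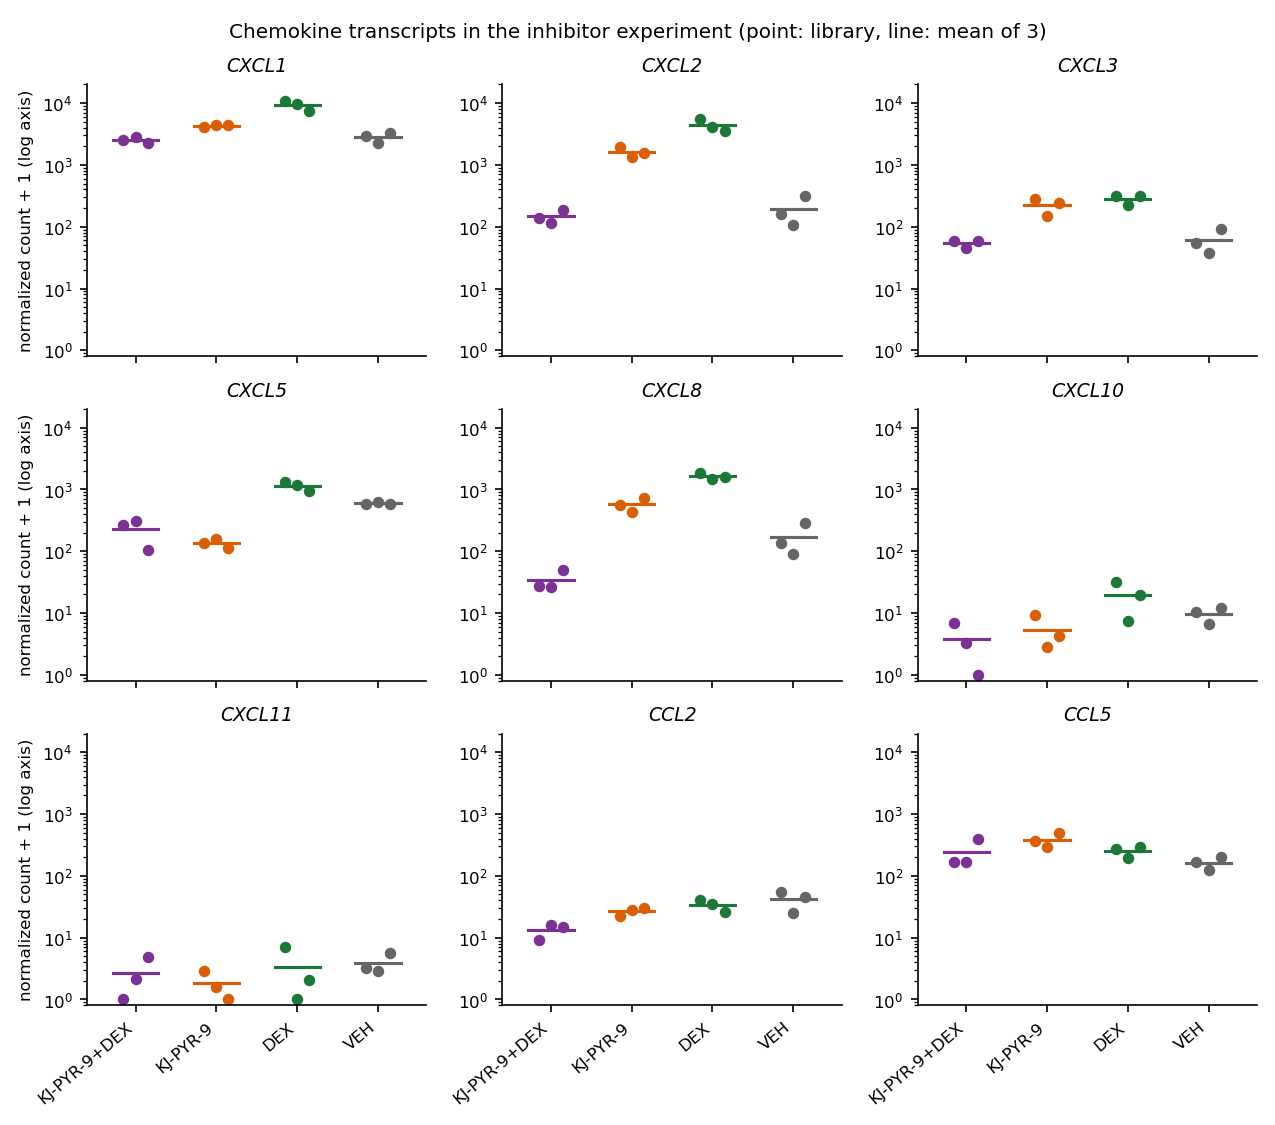
Normalized count plus 1 on a log axis for the 9 chemokines in KJ-PYR-9+DEX, KJ-PYR-9, DEX and VEH cells; points are libraries and lines are means of 3. CXCL2 and CXCL8 are high in KJ-PYR-9 and DEX cells and low in KJ-PYR-9+DEX and VEH cells, while CXCL5 is lowest in the groups with KJ-PYR-9, CXCL10 is at 30.5 or less and CXCL11 at 6.10 or less.

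CXCL2 read 138, 114 and 185 normalized counts in KJ-PYR-9+DEX cells, 1978, 1321 and 1548 in KJ-PYR-9 cells, 5631, 4054 and 3541 in DEX cells, and 159, 105 and 313 in VEH cells. KJ-PYR-9 and DEX libraries lay above all VEH libraries with no overlap, and the combination lay within the range of VEH. Against VEH the log2 fold change was 3.19 (SE 0.35, limma adjusted p = 0.000314) for KJ-PYR-9 and 4.63 (SE 0.35, adjusted p = 2.03e-05) for DEX. In the combination it was -0.28 (SE 0.35, adjusted p = 0.545). Compared with single agents, the combination was lower by 4.91 than DEX (log2 -4.91, adjusted p = 1.37e-05) and by 3.47 than KJ-PYR-9 (log2 -3.47, adjusted p = 0.000135).

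CXCL8 read 26.1, 25.3 and 49.1 normalized counts in KJ-PYR-9+DEX cells, 559, 436 and 717 in KJ-PYR-9 cells, 1836, 1486 and 1615 in DEX cells, and 137, 89.3 and 288 in VEH cells. The 4 groups did not overlap, with DEX highest and the combination lowest. It rose by 1.87 with KJ-PYR-9 (SE 0.38, limma adjusted p = 0.00448) and by 3.42 with DEX (SE 0.38, adjusted p = 0.000314) against VEH. The combination was at -2.22 against VEH (SE 0.38, adjusted p = 0.00435), at -5.64 against DEX (adjusted p = 9.31e-06) and at -4.09 against KJ-PYR-9 (adjusted p = 7.46e-05).

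CXCL3 read 58.2, 43.8 and 57.0 normalized counts in KJ-PYR-9+DEX cells, 281, 146 and 244 in KJ-PYR-9 cells, 308, 226 and 318 in DEX cells, and 52.6, 37.0 and 90.7 in VEH cells. The single agents overlapped with each other and lay above both other groups. Log2 fold changes against VEH were 1.92 (SE 0.32, limma adjusted p = 0.00215) for KJ-PYR-9, 2.30 (SE 0.32, adjusted p = 0.00125) for DEX and -0.09 (SE 0.32, adjusted p = 0.829) for the combination. In the combination CXCL3 was at -2.40 against DEX (adjusted p = 0.000204) and at -2.01 against KJ-PYR-9 (adjusted p = 0.00285). CXCL1 read 2561, 2792 and 2303 in KJ-PYR-9+DEX cells, 4113, 4393 and 4479 in KJ-PYR-9 cells, 10872, 9528 and 7545 in DEX cells, and 2909, 2224 and 3256 in VEH cells. Its log2 fold changes against VEH were 0.65 for KJ-PYR-9 (SE 0.17, adjusted p = 0.0136), 1.74 for DEX (SE 0.17, adjusted p = 0.000134) and -0.12 for the combination (SE 0.17, adjusted p = 0.60). Those for the single agents were smaller than in CXCL2, CXCL3 and CXCL8. In the combination CXCL1 was at -1.86 against DEX (adjusted p = 4.78e-05) and at -0.77 against KJ-PYR-9 (SE 0.17, adjusted p = 0.0205). That call was lost in 4 of the 6 fits that leave out 1 library, those without KJ-PYR-9 1, 2 or 3 or KJ-PYR-9+DEX 1, with adjusted p of 0.0566 to 0.0766. The rise with KJ-PYR-9 was lost without VEH 2 (0.49, adjusted p = 0.0569).

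CXCL5 read 269, 312 and 104 normalized counts in KJ-PYR-9+DEX cells, 137, 157 and 113 in KJ-PYR-9 cells, 1321, 1191 and 942 in DEX cells, and 583, 638 and 588 in VEH cells. Every library with KJ-PYR-9 lay below every VEH library, and every DEX library above. It fell by 2.15 with KJ-PYR-9 (SE 0.33, limma adjusted p = 0.00161) and by 1.54 with the combination (SE 0.33, adjusted p = 0.0103) against VEH. With DEX it stood at 0.92 (SE 0.33, adjusted p = 0.0761), which passed with the replicate number as a block (adjusted p = 0.0221), in edgeR (0.0272), in DESeq2 (0.00788) and without both DEX 1 and KJ-PYR-9+DEX 3 (0.81, adjusted p = 0.0170). The combination stood 0.61 above KJ-PYR-9 (SE 0.33, adjusted p = 0.352). Without KJ-PYR-9+DEX 3, the library low for CXCL5 and with 8.72% of its reads in unnamed features, that difference was 1.10 (adjusted p = 0.00458, and 0.00407 without DEX 1 as well).

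CCL5 read 168, 165 and 393 normalized counts in KJ-PYR-9+DEX cells, 365, 289 and 485 in KJ-PYR-9 cells, 268, 197 and 287 in DEX cells, and 168, 124 and 198 in VEH cells. Only the KJ-PYR-9 group lay wholly above VEH. It rose by 1.21 with KJ-PYR-9 (SE 0.33, limma adjusted p = 0.0155), a call lost without KJ-PYR-9 3 (adjusted p = 0.0663) or VEH 2 (0.0616). The log2 fold change was 0.62 with DEX (adjusted p = 0.186, and 0.0272 with the replicate block) and 0.47 with the combination (adjusted p = 0.276). The combination stood at -0.16 against DEX (SE 0.33, adjusted p = 0.687) and at -0.74 against KJ-PYR-9 (SE 0.33, adjusted p = 0.245), of which the second passed with the replicate block (adjusted p = 0.0309) and without KJ-PYR-9+DEX 3 (-1.15, adjusted p = 0.0221, and 0.0252 without DEX 1 as well). CCL2 read 8.02, 15.0 and 13.8 in KJ-PYR-9+DEX cells, 21.3, 26.7 and 29.2 in KJ-PYR-9 cells, 39.7, 34.6 and 25.1 in DEX cells, and 53.4, 23.7 and 45.3 in VEH cells. The combination lay below all other libraries, at -1.62 against VEH (SE 0.31, adjusted p = 0.00671) and -1.38 against DEX (adjusted p = 0.00250), while -1.05 against KJ-PYR-9 (adjusted p = 0.0686) did not pass. These calls rest on 4, 13 and 7 recovered reads of CCL2 in the combination. With KJ-PYR-9 alone CCL2 stood at -0.58 against VEH (SE 0.31, adjusted p = 0.148), which passed without VEH 2 (-0.92, adjusted p = 0.0325). With DEX alone it stood at -0.24 (SE 0.31, adjusted p = 0.577).

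CXCL10 read 6.02, 2.30 and 0 normalized counts in KJ-PYR-9+DEX cells, 8.15, 1.78 and 3.24 in KJ-PYR-9 cells, 30.5, 6.38 and 18.8 in DEX cells, and 9.46, 5.72 and 10.9 in VEH cells. CXCL11 read 0, 1.15 and 3.93 in KJ-PYR-9+DEX cells, 1.88, 0.594 and 0 in KJ-PYR-9 cells, 6.10, 0 and 1.04 in DEX cells, and 2.27, 1.91 and 4.69 in VEH cells. Both stayed under the filter. On average CXCL10 was highest in DEX cells and lowest in the combination. CXCL11 stood at a few reads or 0 in every group, with KJ-PYR-9 libraries just below VEH libraries. With no filter on low values limma gave CXCL10 a log2 difference of -2.54 between KJ-PYR-9+DEX and DEX (SE 0.74, adjusted p = 0.0150). The lowest DEX library (6.38) was just above the highest library of the combination (6.02). This rests on 3, 2 and 0 recovered reads in the combination, against 10, 7 and 18 with DEX, so the p-value is descriptive. In the other comparisons neither CXCL10 nor CXCL11 passed without the filter (limma adjusted p of 0.111 or more).

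Whether the effect of KJ-PYR-9 differed with DEX was tested by the interaction, the effect of KJ-PYR-9 in the presence of DEX minus its effect without DEX. It was negative and passed in 4 of 7 chemokines and positive in 0, against 9.62% of all genes called lower. CXCL2 gave -8.10 (SE 0.50, limma adjusted p = 3.75e-06), CXCL8 -7.51 (SE 0.54, adjusted p = 8.79e-06), CXCL3 -4.32 (SE 0.45, adjusted p = 0.000128) and CXCL1 -2.50 (SE 0.25, adjusted p = 7.59e-05). These 4 genes rose with KJ-PYR-9 in the absence of DEX and fell with it in the presence of DEX. CXCL5 fell with KJ-PYR-9 in both settings, by 2.15 without DEX and by 2.46 with it (adjusted p = 0.00161 and 0.000217), and its interaction of -0.31 (SE 0.47, adjusted p = 0.693) did not pass. CCL2 gave -0.81 (SE 0.44, adjusted p = 0.235). CCL5 gave -1.36 (SE 0.47, adjusted p = 0.0715), which passed with the replicate block (adjusted p = 0.00593), in DESeq2 (0.0422) and without KJ-PYR-9+DEX 3 (-1.78, adjusted p = 0.00782, and -1.72 with adjusted p = 0.0170 without DEX 1 as well). MYC itself gave -4.63 (SE 0.30, adjusted p = 4.38e-06).

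**Figure D4:**
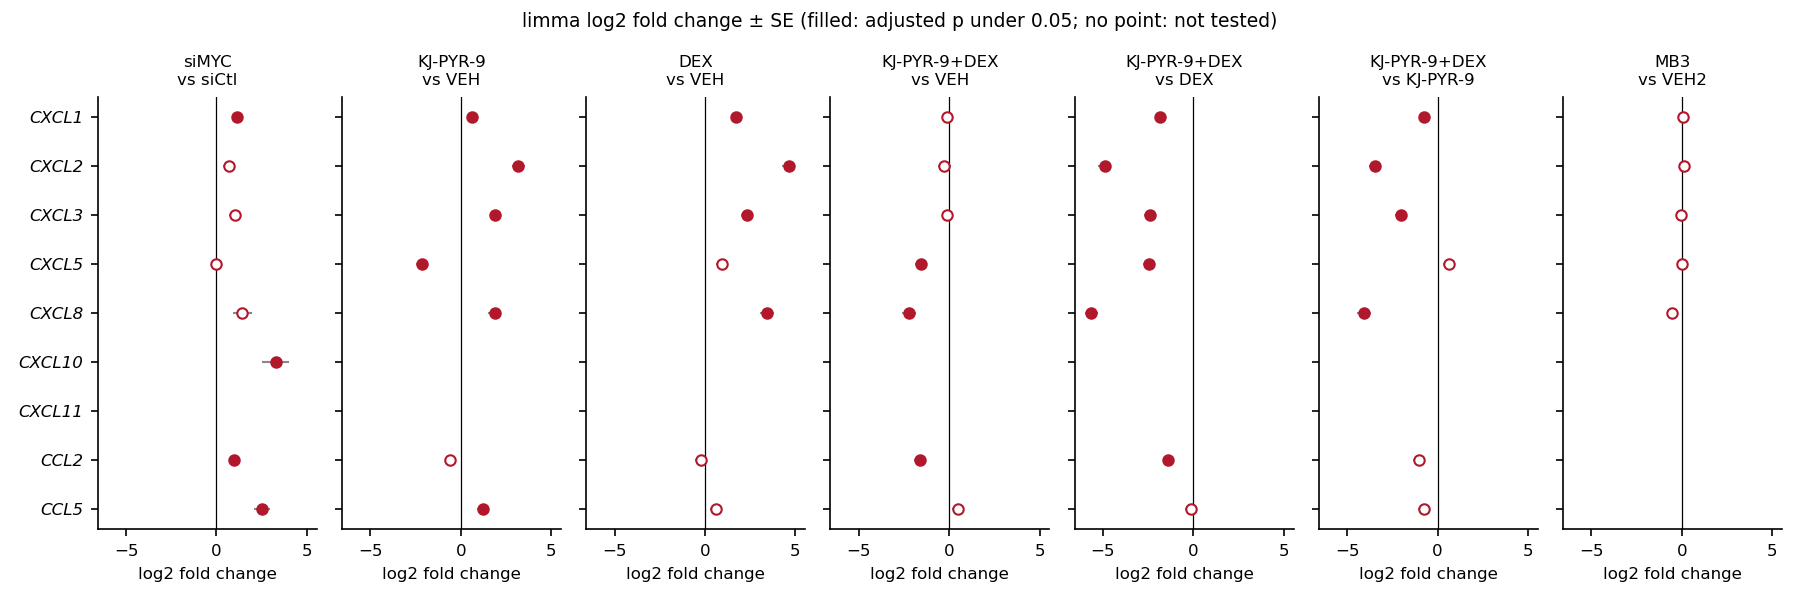
Log2 fold change with its standard error for each chemokine in 7 comparisons (limma); filled points have an adjusted p under 0.05 and genes without a point were not tested. CXCL2 and CXCL8 lie right of 0 for KJ-PYR-9 and DEX against VEH and far left of 0 for KJ-PYR-9+DEX against DEX, while CXCL5 lies left of 0 for KJ-PYR-9 against VEH.

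IL6 followed the same order of groups, with 96.3, 55.3 and 118 normalized counts in KJ-PYR-9+DEX cells, 2001, 1795 and 2308 in KJ-PYR-9 cells, 5177, 4000 and 3625 in DEX cells, and 96.9, 42.7 and 203 in VEH cells. The combination overlapped with VEH, and the single agents stood far above. Its log2 fold change against VEH was 4.40 with KJ-PYR-9 (SE 0.46, limma adjusted p = 0.000224) and 5.46 with DEX (SE 0.46, adjusted p = 3.85e-05), and its interaction -10.01 (SE 0.64, adjusted p = 4.42e-06). Among the 11063 genes with a mean of at least 50, IL6 had the pattern most like CXCL2 (Pearson r = 0.992 over the 12 libraries) and like CXCL3 (r = 0.980). The nearest pattern was CEBPG for CXCL8 (r = 0.991), SEC31A for CXCL1 (r = 0.981), CD47 for CXCL5 (r = 0.993) and HSPA5 for CCL5 (r = 0.962). These correlations describe log2 values of libraries that share groups and scaling.

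Of 14 NF-kB subunits and inhibitors, 10 rose and 1 fell with KJ-PYR-9 against VEH, 4 rose and 1 fell with DEX, and 1 rose and 3 fell with the combination. Over all 13616 genes 3455 (25.4%) rose and 2380 (17.5%) fell with KJ-PYR-9. With DEX 1294 (9.5%) rose and 1092 fell, and with the combination 2507 rose and 2472 (18.2%) fell. List counts near these shares, such as the 3 of 14 that fell with the combination, are not read as a result of the list. NFKBIA rose in all 3, by 1.34 with KJ-PYR-9 (SE 0.19, limma adjusted p = 0.00117), 2.22 with DEX (SE 0.19, adjusted p = 4.82e-05) and 2.11 with the combination (SE 0.19, adjusted p = 8.30e-05). It thus stayed raised where CXCL2 and CXCL8 were not. REL, a transactivating NF-kB subunit, read 64.2, 49.5 and 47.2 normalized counts in KJ-PYR-9+DEX cells, against 143, 132 and 109 in VEH cells, and fell by 1.25 (SE 0.16, adjusted p = 0.000947). ZFP36, which binds AU-rich mRNAs and speeds their decay, rose by 3.49 with KJ-PYR-9 (SE 0.19, adjusted p = 3.80e-06), 3.08 with DEX (SE 0.19, adjusted p = 4.56e-06) and 1.97 with the combination (SE 0.19, adjusted p = 0.000143). Of 9 tested genes of the interferon pathway, 2 rose and 1 fell with KJ-PYR-9, 0 passed with DEX in limma (2 at an unadjusted p under 0.05, and 1 called by edgeR and by DESeq2), and 3 fell with the combination, among them IRF1 (-1.10, SE 0.20, adjusted p = 0.00589).

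Of 7 chemokine receptors listed, 3 could be tested. ACKR3 read 179, 130 and 289 normalized counts in KJ-PYR-9+DEX cells, 1794, 1687 and 2324 in KJ-PYR-9 cells, 644, 601 and 704 in DEX cells, and 270, 240 and 367 in VEH cells. It rose by 2.73 with KJ-PYR-9 (SE 0.26, limma adjusted p = 0.000161) and 1.17 with DEX (SE 0.26, adjusted p = 0.0157), and its interaction was -4.50 (SE 0.37, adjusted p = 2.35e-05). CXCR6, the receptor of CXCL16, went the other way, at -1.17 with KJ-PYR-9 (SE 0.37, adjusted p = 0.0258) and -1.66 with DEX (SE 0.37, adjusted p = 0.0144) against VEH, with an interaction of 3.21 (SE 0.52, adjusted p = 0.00211). CCR10 passed in the combination against DEX (1.55, SE 0.36, adjusted p = 0.00314). Neither CXCR1 nor CXCR2 was tested. Of the other chemokines CCL20, which draws Th17 cells, read 48.8, 41.0 and 23.0 in DEX cells, against 1.14, 0 and 3.13 in VEH cells (adjusted p = 0.00302), with 0 to 5.90 in the other groups. CCL20 passed the filter only through its DEX libraries, so this p-value is descriptive.

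**Figure D5:**
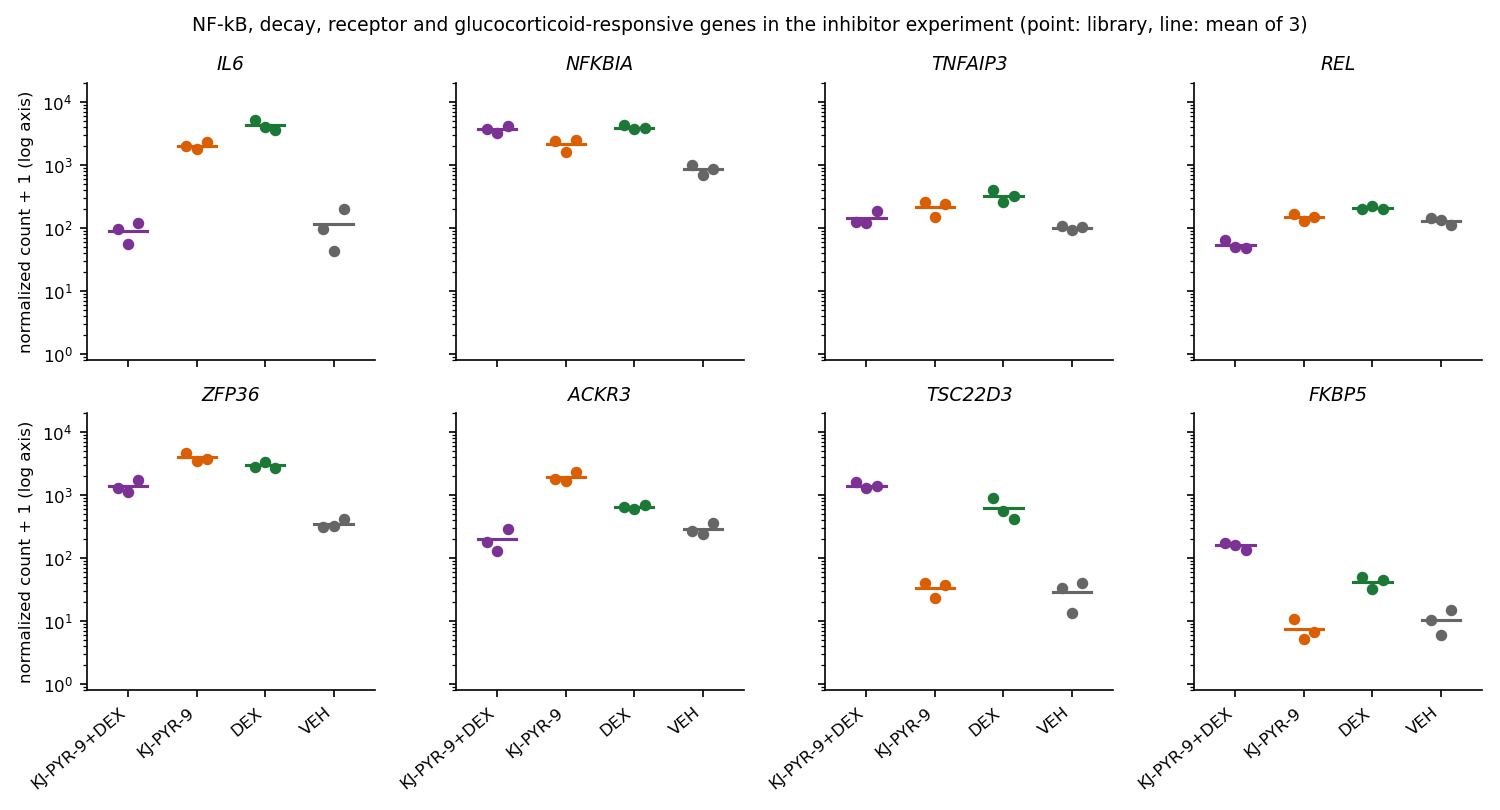
Normalized count plus 1 on a log axis for IL6, 3 NF-kB genes, ZFP36, ACKR3 and 2 glucocorticoid-responsive genes (TSC22D3, FKBP5) in KJ-PYR-9+DEX, KJ-PYR-9, DEX and VEH cells; points are libraries and lines are means of 3. IL6 is low in the combination and VEH and high with each single agent, whereas TSC22D3 and FKBP5 are highest in the combination.

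The glucocorticoid list was divided. In the combination 7 of its 8 genes rose and 1 fell against VEH, and 4 rose and 3 fell against DEX, while in the interaction 2 were positive and 4 negative. Over all 13616 genes 2507 rose and 2472 fell against VEH, and 4569 rose and 4782 fell against DEX. In the interaction 973 were positive and 1310 negative. The counts against DEX are not read as a trait of the list, since 9351 of all genes were called there. TSC22D3 read 1589, 1279 and 1395 normalized counts in KJ-PYR-9+DEX cells, 38.9, 22.6 and 37.3 in KJ-PYR-9 cells, 909, 552 and 413 in DEX cells, and 32.5, 12.6 and 39.1 in VEH cells. It was highest where both were given, at 5.75 against VEH (SE 0.40, limma adjusted p = 1.84e-05), as was FKBP5 at 4.02 (SE 0.35, adjusted p = 6.52e-05). SGK1, a kinase, went the way of CXCL1, CXCL2, CXCL3 and CXCL8 in rising with each single agent, by 2.69 with KJ-PYR-9 (SE 0.23, adjusted p = 7.21e-05) and 4.40 with DEX (SE 0.23, adjusted p = 1.69e-06). Its combination was at -2.96 against DEX (SE 0.23, adjusted p = 1.84e-05) and at 1.44 against VEH (SE 0.23, adjusted p = 0.00313), and its interaction was -5.65 (SE 0.33, adjusted p = 2.67e-06). DUSP1, a phosphatase of the list, rose with KJ-PYR-9 alone by 3.81 (SE 0.26, adjusted p = 1.48e-05) and its interaction was -5.22 (SE 0.36, adjusted p = 6.00e-06). Leukocyte markers summed to 28.1 to 51.1 normalized counts in KJ-PYR-9+DEX, 39.8 to 69.7 in KJ-PYR-9, 23.7 to 38.6 in DEX and 21.8 to 39.1 in VEH libraries, with PTPRC at 0 in KJ-PYR-9+DEX 1 and 3. Epithelial markers summed to 126 to 222, 163 to 189, 94.6 to 119 and 71.5 to 117 in the same 4 groups. Their part in the results was not tested.

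The MB-3 experiment asks which transcripts change when GCN5 is inhibited. MYC read 1941, 2366 and 2427 normalized counts in MB3 cells, against 2178, 2499 and 2262 in VEH2 cells (-0.05, SE 0.11, limma adjusted p = 0.852). None of the 5 chemokines tested was called and 0 had an unadjusted p under 0.05 (1 with the replicate block). Of all 10048 genes 0.0597% (6) were called. CXCL1 read 3526, 2786 and 2528 in MB3 cells, against 3173, 2997 and 2222 in VEH2 cells (0.08, SE 0.17, adjusted p = 0.849). CXCL8 read 549, 283 and 256 in MB3 cells, against 712, 464 and 356 in VEH2 cells. Each MB3 library was below the VEH2 library with its number, but the groups overlapped and the log2 difference of -0.52 (SE 0.33, adjusted p = 0.485) did not pass.

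The other 3 genes read nearly alike in both groups. CXCL2 read 430, 209 and 228 normalized counts in MB3 cells, against 343, 227 and 212 in VEH2 cells (0.10, SE 0.29, limma adjusted p = 0.885). CXCL3 read 99.8, 83.4 and 69.2 in MB3 cells, against 101, 79.9 and 82.0 in VEH2 cells (-0.07, SE 0.15, adjusted p = 0.851). CXCL5 read 2110, 1892 and 1496 in MB3 cells, against 1886, 1887 and 1649 in VEH2 cells (0.01, SE 0.13, adjusted p = 0.980). Of 14 NF-kB genes tested 0 passed in limma, with 5 at an unadjusted p under 0.05. The share of all genes at that p is not given here, so the 5 are not read as a result of the list. CXCL10, CXCL11, CCL2 and CCL5 were not analysed here in these cells.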

How the data were processed

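RNA of 24 BT549 libraries was depleted of ribosomal RNA and sequenced as paired ends, per the labels' protocols. The deposited signal of each library is a table of read counts per gene normalized by the authors. Per the submitters' processing notes, build GRCh38 was used with bcl2fastq, SAMtools, featureCounts and DESeq2, and the aligner, versions and strandedness are not given in the sources used here. All values divided by a per-library factor came out whole within 0.0001, so reads could be recovered, less surely in the MB-3 table, which holds no low values. Features without a symbol (1.62% to 26.0% of inhibitor reads) were left out, and rows sharing a symbol were summed.

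Genes with a symbol that averaged 10 or more across the libraries of a fit entered limma 3.58.1 (R 4.3.3) as log2(value + 1), tested two-sided, Benjamini-Hochberg adjusted over all genes tested, at 0.05. Fold changes on this scale understate those of low genes. The 12 inhibitor libraries shared 1 fit. Alternatives were other pseudocounts, filters and TMM rescaling, the replicate number as a block, leaving out each library, and edgeR 4.0.16 and DESeq2 1.42.0 on recovered reads. limma was tested on simulated data. Samples sharing a number correlated in their residuals at 0.130 to 0.524 in the inhibitor experiment (18 pairs). In the MB-3 experiment they correlated at 0.208 to 0.389 (3 pairs). The main fits and their p-values ignore this pairing, and only the fits with the replicate number as a block use it. Named were all 9 chemokines, MYC, the most similar gene by Pearson r, and up to 4 called genes per list with the largest change. The genes and lists were chosen with earlier results of these data known. List genes shown by library, and DUSP1, SGK1, CXCR6, CCR10 and ERBB2, were picked within the lists after their values were seen. Annotation came from GENCODE 29 and promoters from RefSeq GRCh38.p14. Some genes of the lists are not reported here by name.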

Additional observations from a re-analysis of the deposited data

Results flagged for a closer look

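The effect of KJ-PYR-9 with DEX differed from its effect without DEX in 4 chemokines, by a test of the difference itself in limma. The difference on the log2 scale was -8.10 for CXCL2, -7.51 for CXCL8, -4.32 for CXCL3 and -2.50 for CXCL1. Each gene rose with KJ-PYR-9 in the absence of DEX and fell with it in the presence of DEX. Without both DEX 1 and KJ-PYR-9+DEX 3, chosen after seeing the data, all 4 still passed.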

How the results depend on the processing

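Of 865 values of single chemokines under the alternatives, 803 kept their direction and side of the threshold, 25 kept the direction and lost the call, 18 gained one and 19 turned sign, all 19 in genes not called. In the knockdown 4 of 8 chemokines were called, among them CXCL10, which passed the filter only through the siMYC libraries. With 1 library left out 0 to 4 were called. With the replicate block 0 were called (6 at an unadjusted p under 0.05 in limma), beside 403 of 14788 genes higher and 67 lower. The 3 pairs correlated at -0.346 to -0.02, so the numbers do not pair. In every other comparison the count stayed within 1.5 times. Outside the knockdown the replicate block changed no chemokine call but those given for CXCL5 and CCL5. With 1 library left out, log2 values turned sign for CXCL5 in siMYC (-0.0934 to 0.0181). They also did for CXCL1 (-0.27 to 0.00052), CXCL2 (-0.64 to 0.15) and CXCL3 (-0.39 to 0.25) in KJ-PYR-9+DEX against VEH, CCL5 in KJ-PYR-9+DEX against DEX (-0.57 to 0.0561) and CXCL5 in the interaction (-0.61 to 0.18). Without both DEX 1 and KJ-PYR-9+DEX 3, chosen after seeing the data, the CXCL5 interaction was 0.29. In MB3 against VEH2 they ran from -0.0800 to 0.18 for CXCL1, -0.22 to 0.32 for CXCL2, -0.20 to 0.0633 for CXCL3, -0.10 to 0.15 for CXCL5 and -0.11 to 0.0532 for MYC. The cause was not tested.

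Counts of all genes called were 2386 in siMYC (432 to 3983 over the alternatives), 5835 for KJ-PYR-9 (3393 to 7897), 2386 for DEX (865 to 5925) and 4979 for the combination (1376 to 7548) against VEH. They were 9351 (7218 to 10257) for the combination against DEX, 1028 (624 to 2018) against KJ-PYR-9, 2283 (1469 to 4399) for the interaction and 6 (1 to 14) in MB3. edgeR called 3406 genes higher and 3655 lower for KJ-PYR-9 against VEH, where limma called 3455 and 2380. edgeR and DESeq2 were not run on the MB-3 table. Fits that leave a group with 2 libraries assume that they vary like the others. Depth of 5.58 M reads in DEX 1 and the few reads of CXCL10 and CXCL11 limit those values. So do the few reads in the combination of CCL2 and of CXCL8 (13, 22 and 25). With a filter at a mean of at least 50, CCL2 was not tested and 2 chemokines were called for the combination against VEH.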
